A study of Homo sapiens with 2 samples.

Results

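Annexins are proteins that bind acidic membrane phospholipids when calcium is present, through a conserved core of repeats, and they take part in membrane repair, vesicle traffic and, outside the cell, in the control of inflammation and clotting. S100 proteins are small dimeric calcium sensors with EF-hand loops that bind and regulate other proteins, annexins among them. Both families are abundant in epithelial cells, and S100A10 and annexin A2 form a complex at the plasma membrane. The genes described here were 6 annexins (ANXA1, ANXA2, ANXA3, ANXA4, ANXA5 and ANXA11) and 4 S100 genes (S100A4, S100A6, S100A10 and S100A11), 10 of the 23307 genes named in the files. Their transcript models were the RefSeq models of these symbols and the assembled models that share an exact intron with them on the same strand.

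The RNA came from HCT116, a human colorectal carcinoma line, engineered with a construct that knocks down USP49 on addition of tetracycline or its analogue doxycycline (the T-Rex system), and both libraries came from cells kept in blasticidin and puromycin. USP49 is a protease that removes ubiquitin from histone H2B. One poly(A) library was labelled control and 1 was labelled USP49 knockdown. The treatment text, the same for both, describes doxycycline induction and harvest at 36 h, and does not say whether the RNA control was induced. Both libraries thus come from the same engineered line, with no replicate and no line lacking the construct, and no difference below has a replicate check or a p-value. The files hold Cufflinks transcript models on hg18, from which fragment numbers were recovered. The control total was 16344447 fragments, and the total of the library labelled knockdown was 19921529. The main value is FPKM on RefSeq exons, a gene's fragments on its RefSeq exons scaled for their length and for the library total. Intervals of gene levels, ratios and shares are 95% intervals for counting error only, and duplicates from PCR are not separate molecules. The FPKM intervals of single models are the deposited ones scaled for depth, and they can be wider than counting error.

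USP49 itself stood at 0.909 FPKM on its exons (0.675 to 1.22) in the control library against 1.11 in the library labelled knockdown (0.861 to 1.40). Summed over its models it stood at 2.89 and 1.11 FPKM (log2 ratio −0.88), and its models held 206 and 69 fragments (−1.86 after scaling for depth alone). Both of these run the way of the label and the exon level does not, so the files do not settle it, and directions below refer to the label. Epithelial markers were present, with 7 of 9 at 1 FPKM or more in each library and a summed level of 662 FPKM in control against 601 in the library labelled knockdown; CDH17 was under 1 FPKM and VIL1 was listed at 0 in both. Of 6 fibroblast markers COL1A1 alone passed 1 FPKM, at 6.90 and 6.57. Leukocyte markers summed to 0.299 and 0.16 FPKM and endothelial markers to 0.0794 and 0.0957.

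The 6 annexin genes lie on 5 chromosomes but share an exon plan. In RefSeq, the 9 exons before the last had lengths of 95, 114, 91, 80, 57, 94, 96, 59 and 123 bases in ANXA1, ANXA3, ANXA4, ANXA5 and ANXA11. ANXA2 had the same lengths except for 60 bases in place of 57. These exons encode most of the annexin core, and what lies before them differs: ANXA11 has a coding exon of 390 bases for its long N-terminal region, which no other member has. The 91-base exon is shown because it opens, in all 6 genes and in frame, on the same codons of a calcium-binding loop, for a glycine, any residue, a glycine and a threonine. With N where the 6 genes differ, the first 12 bases read GGNNNNGGNACN, and they are in capitals. The sequences are those of GENCODE transcripts on GRCh38, whose exon has the same length as the hg18 exon in the files, and exons are numbered in the 13-exon RefSeq form of ANXA2 and the 15-exon form of ANXA11.
ANXA1 exon 6: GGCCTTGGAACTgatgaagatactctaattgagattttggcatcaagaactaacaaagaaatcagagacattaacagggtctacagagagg
ANXA2 exon 6: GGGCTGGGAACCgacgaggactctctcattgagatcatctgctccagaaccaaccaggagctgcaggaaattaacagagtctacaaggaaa
ANXA3 exon 6: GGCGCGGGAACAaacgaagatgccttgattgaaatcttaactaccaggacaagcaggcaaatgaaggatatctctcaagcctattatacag
ANXA4 exon 6: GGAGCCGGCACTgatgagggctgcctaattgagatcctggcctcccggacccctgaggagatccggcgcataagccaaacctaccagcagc
ANXA5 exon 6: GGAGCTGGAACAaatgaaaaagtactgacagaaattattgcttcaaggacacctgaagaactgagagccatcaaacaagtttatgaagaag
ANXA11 exon 8: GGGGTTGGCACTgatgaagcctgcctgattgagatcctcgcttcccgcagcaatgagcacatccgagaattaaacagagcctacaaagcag

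In hg18 the exon lies at chr9:74965539-74965629 on the plus strand in ANXA1 and at chr15:58436637-58436727 on the minus strand in ANXA2. In ANXA3 it lies at chr4:79726438-79726528 on the plus strand, and in ANXA4 at chr2:69888542-69888632, also plus. In ANXA5 it lies at chr4:122822276-122822366 and in ANXA11 at chr10:81913789-81913879, both on the minus strand. Identity over the 91 bases, with no gaps, ran from 49.5% (ANXA3 and ANXA4) to 68.1% (ANXA4 and ANXA11) over the 15 pairs, with a median of 56.0%. Among 1008 coding exons of 91 bases in protein-coding GENCODE transcripts, 2.88% hold that run of 12 on the coding strand, 5.95% on either strand and 1.19% at their first base, the annexin exons that defined it included. The 123-base exon opens on the same run in all 6 genes, though it was not used to define it, as GGTGTTGGAACT in ANXA1 and GGCAAGGGGACG in ANXA2. Every RefSeq intron between these exons was held by models with fragments in both libraries.

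**Figure D1:**
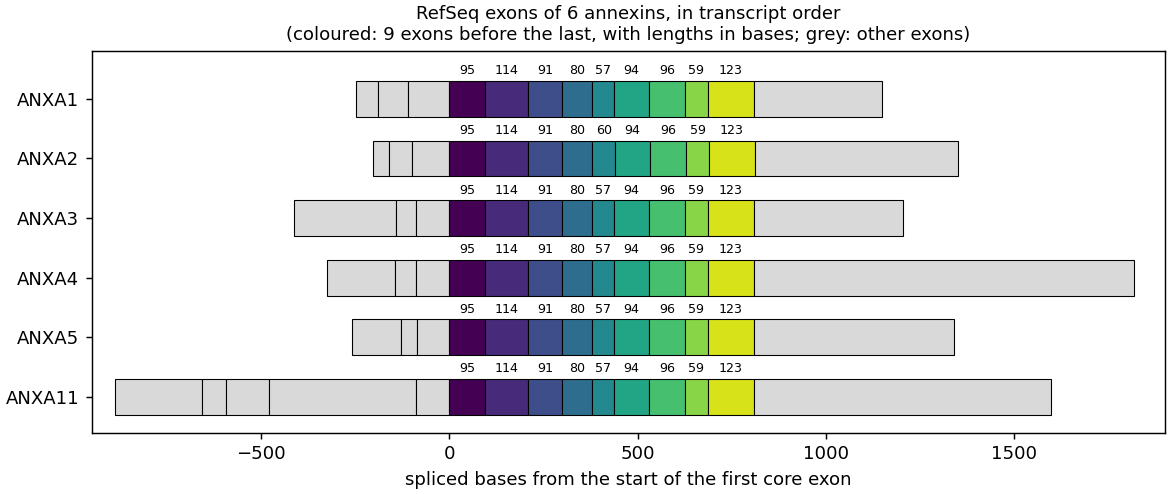
RefSeq exons of the 6 annexin genes drawn to scale in transcript order, with the x axis in spliced bases from the start of the first of the 9 core exons. The coloured core exons carry their lengths in bases and line up between genes except for the 60-base exon of ANXA2, while the grey exons before and after them vary in number and length.

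The 4 S100 genes lie on the minus strand of chromosome 1 as 2 neighbouring pairs. S100A6 and S100A4 are 7.38 kb apart with S100A5 between them, and S100A10 and S100A11 are 38.3 kb apart. The measured S100A4, S100A6, S100A10 and S100A11 models all have 3 exons, and the second is 156, 159, 153 and 153 bases long. In S100A4, S100A6 and S100A10 the start codon lies in that second exon, whose coding part is shown because the assembled models of S100A6 and S100A10, described below, differ from RefSeq only upstream of it and at the ends. The start codon is in capitals.
S100A4 exon 2: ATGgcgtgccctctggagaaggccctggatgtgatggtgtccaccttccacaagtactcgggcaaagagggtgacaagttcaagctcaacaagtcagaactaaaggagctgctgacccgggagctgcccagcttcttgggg
S100A6 exon 2: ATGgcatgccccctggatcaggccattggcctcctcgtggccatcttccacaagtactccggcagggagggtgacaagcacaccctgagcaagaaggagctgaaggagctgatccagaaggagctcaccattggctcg
S100A10 exon 2: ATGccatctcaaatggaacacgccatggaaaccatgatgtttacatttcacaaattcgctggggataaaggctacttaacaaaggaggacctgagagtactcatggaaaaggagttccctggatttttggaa

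These exons lie at chr1:151783754-151783909 (S100A4), chr1:151774302-151774460 (S100A6) and chr1:150225199-150225351 (S100A10) in hg18, and their sequences again come from GENCODE transcripts on GRCh38. The coding part covers 141, 138 and 132 bases. In S100A11 the start codon is the last 3 bases of exon 1.

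All 10 genes were expressed in both libraries, and S100A6 was the most abundant. Among the 12086 genes that averaged at least 1 FPKM on exons, S100A6 ranked 3 in each library. ANXA1 ranked 13 in control against 7 in the library labelled knockdown, and S100A4 ranked 24 and 27. The least abundant, ANXA4, ranked 2060 and 2108. The order of the 10 levels was the same in both libraries: S100A6, ANXA1, S100A4, ANXA5, ANXA3, S100A10, S100A11, ANXA11, ANXA2, ANXA4. The counting intervals of ANXA5 and ANXA3 overlapped in both libraries, and those of S100A11 and ANXA11 in control. All other neighbours in the order had separate intervals. The place of ANXA2 is less sure than its interval, since near-identical copies exist and how fragments were shared among them is not recorded.

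**Figure D2:**
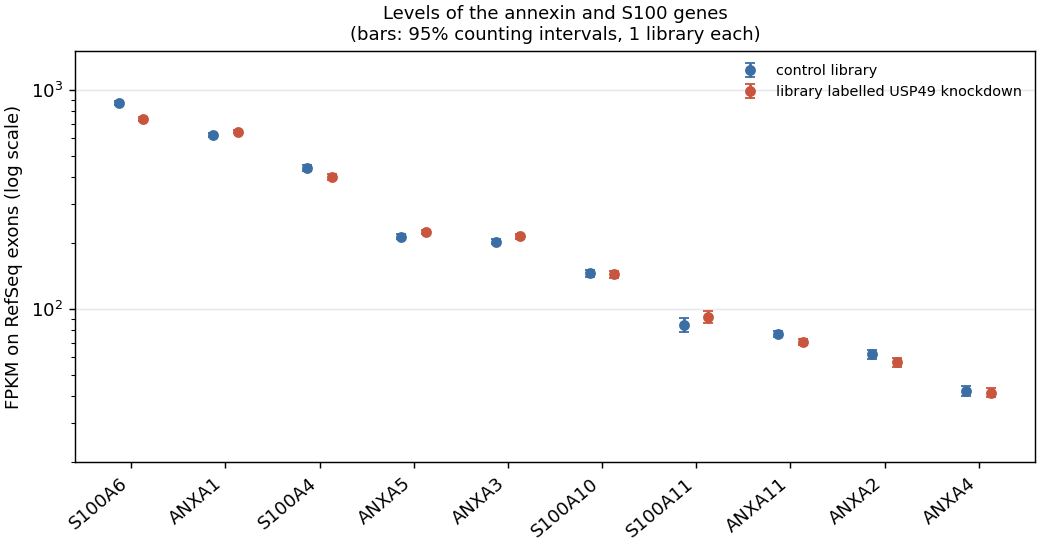
Level of each gene in FPKM on RefSeq exons (log axis) in the control library (blue) and the library labelled USP49 knockdown (red), ordered by the control level, with 95% counting intervals as bars. S100A6 stands highest at 867 and 731 FPKM and ANXA4 lowest at 42.2 and 41.4, and the points of a gene lie close together beside the range between genes.

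On exons, differences between the libraries were small in fold for every member. The log2 ratio, always the library labelled knockdown over control and computed after adding 1 FPKM to each level, ran from −0.24 (S100A6) to 0.12 (S100A11), with 4 genes above 0 and 6 below. The median of the 10 was −0.02, against −0.0035 over all 12086 genes, of which 5885 were above 0 and 6201 below. No member was 1.2-fold or more higher or lower, where 2.21% of all genes were that much higher and 3.97% that much lower; at 2-fold the shares of all genes were 0.298% and 0.488%. By counting error alone, the interval of the depth-scaled ratio left out 1 for 3 higher members (ANXA1, ANXA3 and ANXA5) and 4 lower ones (ANXA2, ANXA11, S100A4 and S100A6). The same held for 13.2% of all genes in the higher direction and 14.3% in the lower, and for 19.6% and 18.4% of the 5889 genes with at least as many control fragments as S100A11, the member with the fewest.

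Among the annexins, ANXA1, an early target of glucocorticoids whose protein dampens inflammation, stood at 620 FPKM (610 to 631) in the control library against 642 (632 to 651) in the library labelled knockdown. The ratio was 1.03 (1.01 to 1.06), a log2 difference of 0.05, and the intervals of the levels do not overlap. ANXA3, an annexin of granules and phagosomes, stood at 202 FPKM (197 to 208) and 214 (209 to 219), a ratio of 1.06 (1.02 to 1.10). ANXA5, the phosphatidylserine binder used to stain dying cells, stood at 213 FPKM (208 to 219) and 224 (219 to 230), a ratio of 1.05 (1.02 to 1.09). These 3 genes, the most abundant of the 6, were the annexins higher in the library labelled knockdown on exons, although ANXA1 was lower by the sum over models (−0.22), and their log2 ratios of 0.05 to 0.08 lay at percentiles 67.6 to 78.0 of all genes.

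The less abundant annexins lay at or below no difference. ANXA11, a partner of the calcium sensor ALG-2 (PDCD6) that tethers RNA granules to lysosomes, stood at 76.6 FPKM (74.0 to 79.2) in the control library against 70.7 (68.4 to 73.0) in the library labelled knockdown, a ratio of 0.923 (0.881 to 0.968). ANXA4, an annexin of epithelial membranes, stood at 42.2 FPKM (40.1 to 44.5) and 41.4 (39.5 to 43.4), and its ratio of 0.981 (0.914 to 1.05) holds 1. ANXA2, the partner of S100A10, stood at 62.0 FPKM (59.1 to 64.9) and 56.9 (54.5 to 59.5), a ratio of 0.919 (0.861 to 0.980). The ANXA2 level is uncertain, since the genome holds near-identical processed copies, and how fragments were shared out among them is not recorded. The copy ANXA2P2, with 1 exon on chromosome 9, stood at 68.7 FPKM in control against 62.2 in the library labelled knockdown, which is higher per length than ANXA2 itself in both. ANXA2P2 held 1418 and 1565 fragments against 1788 and 2002 on the exons of ANXA2, and its log2 ratio of −0.14 was near the −0.12 of ANXA2. A second copy, ANXA2P3, stood at 3.29 and 2.47 FPKM.

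Among the S100 genes, S100A6, or calcyclin, which binds the ubiquitin ligase adaptor CACYBP, had the largest difference of the members on exons, though by the sum over models its sign turned (0.029). It stood at 867 FPKM (849 to 885) in the control library against 731 (717 to 746) in the library labelled knockdown, a ratio of 0.844 (0.820 to 0.869). Its log2 ratio of −0.24 lay at percentile 4.64 of all genes. Its neighbour S100A4, a binder of non-muscle myosin tied to cell motility, stood at 440 FPKM (426 to 455) and 399 (387 to 412), a ratio of 0.907 (0.868 to 0.949) at percentile 14.9. S100A5, between them, was far lower, at 5.44 and 5.75 FPKM, with a log2 ratio of 0.07.

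S100A10, the S100 protein that does not need calcium to bind annexin A2, stood at 145 FPKM (139 to 151) in the control library against 144 (138 to 149) in the library labelled knockdown, and its ratio of 0.989 (0.937 to 1.04) holds 1. S100A11, a partner of annexin A1, stood at 84.0 FPKM (78.1 to 90.2) and 91.4 (85.8 to 97.3). With 751 and 996 fragments it is the least deeply covered member, and although its log2 ratio of 0.12 was the highest of the 10, at percentile 86.8, its ratio interval of 0.9888 to 1.198 holds 1. The median log2 ratio was −0.08 for the 4 S100 genes, of which 1 was above 0, and 0.01 for the 6 annexins, of which 3 were. The difference between the families was not tested.

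**Figure D3:**
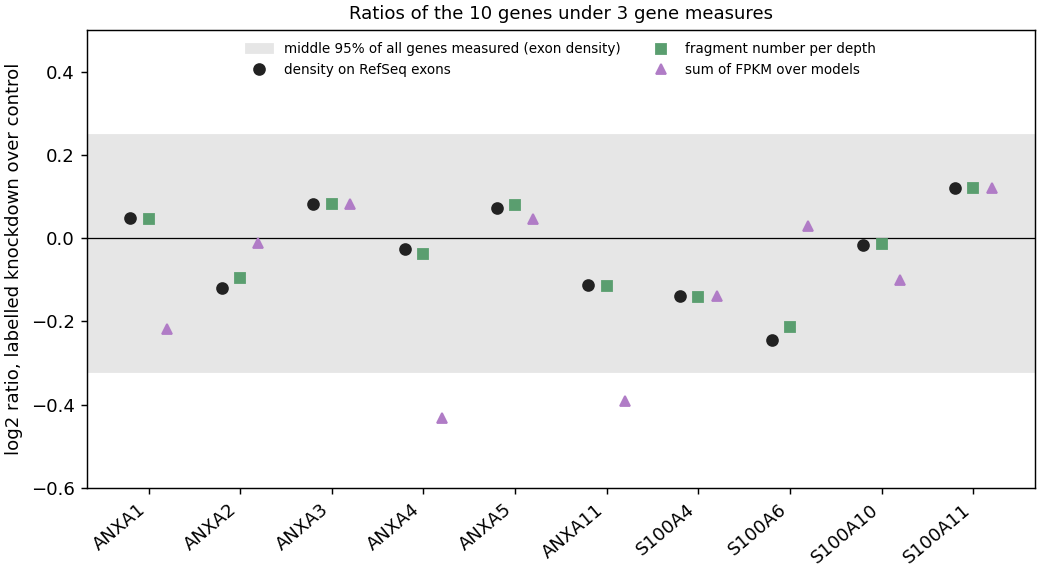
Log2 ratio of the library labelled knockdown over control for the 10 genes under 3 gene measures, with the middle 95% of all genes measured on exons, −0.32 to 0.25, shaded. Density on exons (circles) and fragment number (squares) stay inside the band for every gene, and the sum over models (triangles) leaves it for ANXA4 at −0.43 and ANXA11 at −0.39. By the sum itself the middle 95% of genes is wider, −0.77 to 0.72, and holds both. On exons, the middle 95% of the 5889 genes with at least as many control fragments as S100A11 is narrower, −0.21 to 0.18. It leaves out S100A6 alone of the members.

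The transcript models that carried a gene often differed between the libraries. All 10 genes had a RefSeq model with fragments in each library. ANXA3, S100A4 and S100A11 were carried by 1 RefSeq model alone in both, and the other 7 also had assembled models. There were 7 assembled models in control, with 17.9% of the fragments on the models of the 10 genes, and 5 in the library labelled knockdown, with 12.3%. For S100A4, the 4-exon RefSeq form was listed at 0 in both libraries, and all 3720 and 4114 fragments lay on the 3-exon form.

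**Figure D4:**
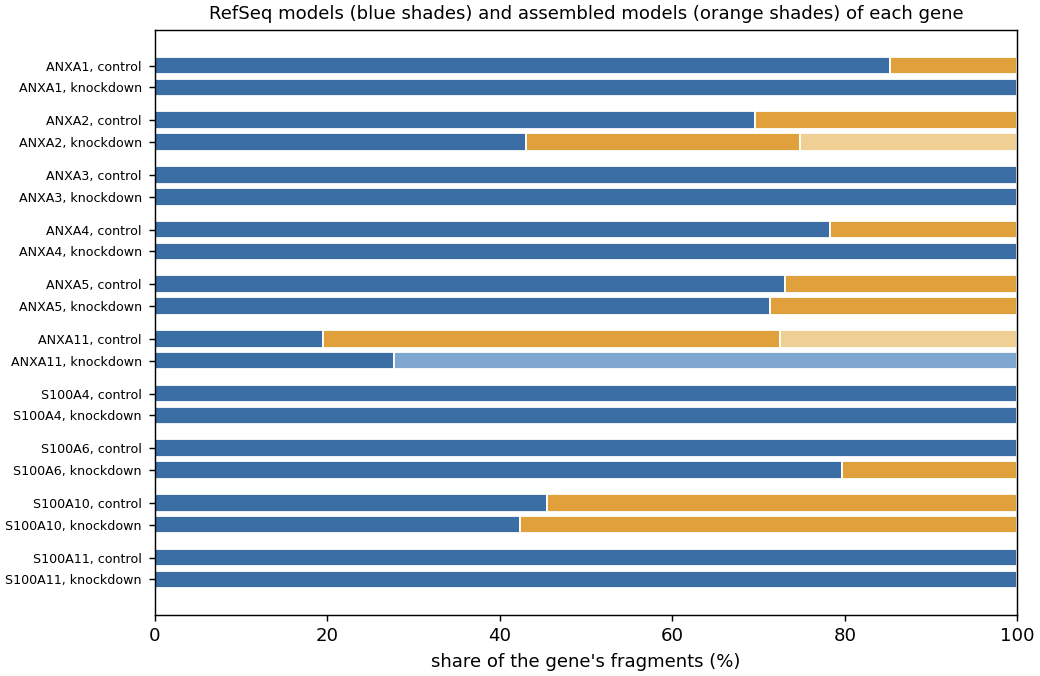
Share of each gene's fragments on RefSeq models (blue shades) and assembled models (orange shades), with 1 bar per gene and library. ANXA1, ANXA4 and ANXA11 have assembled models in control only, S100A6 in the library labelled knockdown only, and S100A10 has most of its fragments on an assembled model in both, at 54.5% and 57.7%.

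The 5′ forms of ANXA11 held like shares of its fragments in both libraries. A 49-base exon at chr10:81925843-81925891, before the start codon, is present in 2 of the 3 RefSeq forms and absent from the other. Models without it held 925 of 3357 fragments in control, or 27.5% (exact 95% interval 26.0 to 29.1), and 1050 of 3778 in the library labelled knockdown, or 27.8% (26.4 to 29.3). The shares differ by less than their counting intervals, which leave out the error of dividing fragments between models. In control, 80.4% of the fragments lay on 2 assembled models that end 520 bases short of the RefSeq 3′ end, while in the library labelled knockdown all lay on RefSeq models. The third RefSeq form, with 1 more 5′ exon, was listed at 0 in both.

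ANXA2 was divided among 2 models with fragments in control, against 3 in the library labelled knockdown. In both libraries an assembled model kept an intron of 472 bases at chr15:58430743-58431214 within an exon, with 590 of 1940 fragments in control, or 30.4% (28.4 to 32.5), and 703 of 2212 in the library labelled knockdown, or 31.8% (29.8 to 33.8). Of the 4 RefSeq forms 1 had fragments, a form with an 81-base leader exon, at 52.0 FPKM (48.9 to 55.1) in the control library against 30.1 (27.8 to 32.4) in the library labelled knockdown. All fragments in control lay on models with that exon, against 74.8% (73.0 to 76.7) in the library labelled knockdown. There the other 25.2% lay on a model that starts in a 29-base exon inside the gene and joins the leader exon of another RefSeq form (chr15:58469704-58469808). That second leader exon was also in the assembled model of control, joined there to the 81-base exon, so models with it held 30.4% (28.4 to 32.5) in control and 25.2% (23.3 to 27.0) in the other library. No ANXA2 model was listed as fully supported by reads in either library.

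In ANXA5 the second model differed by the exon that holds the start codon. In control, an assembled model with 27.0% of the fragments (25.8 to 28.2) joined the first exon directly to the third, and so left out the 44-base exon at chr4:122837186-122837229, which carries the first 9 coding bases. In the library labelled knockdown no model left it out, and the assembled model there, with 28.7% of the fragments, had all RefSeq introns and a shorter 3′ end. The RefSeq model stood at 156 FPKM (151 to 162) in the control library against 161 (156 to 167) in the library labelled knockdown, so the intervals of that RefSeq model overlapped. The models that hold the exon, however, had 3970 of 5436 fragments in control and all 6999 in the library labelled knockdown. The files hold no read positions, so reads across the direct join could not be counted.

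S100A10, S100A6, ANXA1, ANXA4 and ANXA2 shared a further kind of model, which starts in a short exon of its own. S100A10 had one in each library, from a 37-base exon in control (chr1:150232582-150232618) and a 39-base exon in the library labelled knockdown (chr1:150231564-150231602). Both joined the same exon 2, and they stood at 165 FPKM (155 to 175) and 155 FPKM (146 to 163), while the RefSeq model stood at 68.5 (63.9 to 73.1) and 63.1 (59.0 to 67.2). The RefSeq model thus made up 29.33% and 28.96% of the summed FPKM of S100A10, although the assembled starts lay at different places.

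S100A6 had a model of this kind in the library labelled knockdown only, from a 41-base exon at chr1:151774889-151774929, with 1929 of 9473 fragments and 289 FPKM (273 to 305). ANXA1 had one in control only, from an 8-base exon joined to exon 7, with 2024 of 13733 fragments and 216 FPKM (204 to 229). ANXA4 had one in control only, from a 29-base exon joined to exon 4, with 316 of 1456 fragments and 22.9 FPKM (19.8 to 26.1). The ANXA1 and ANXA4 models lack the RefSeq exon with the start codon.

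**Figure D5:**
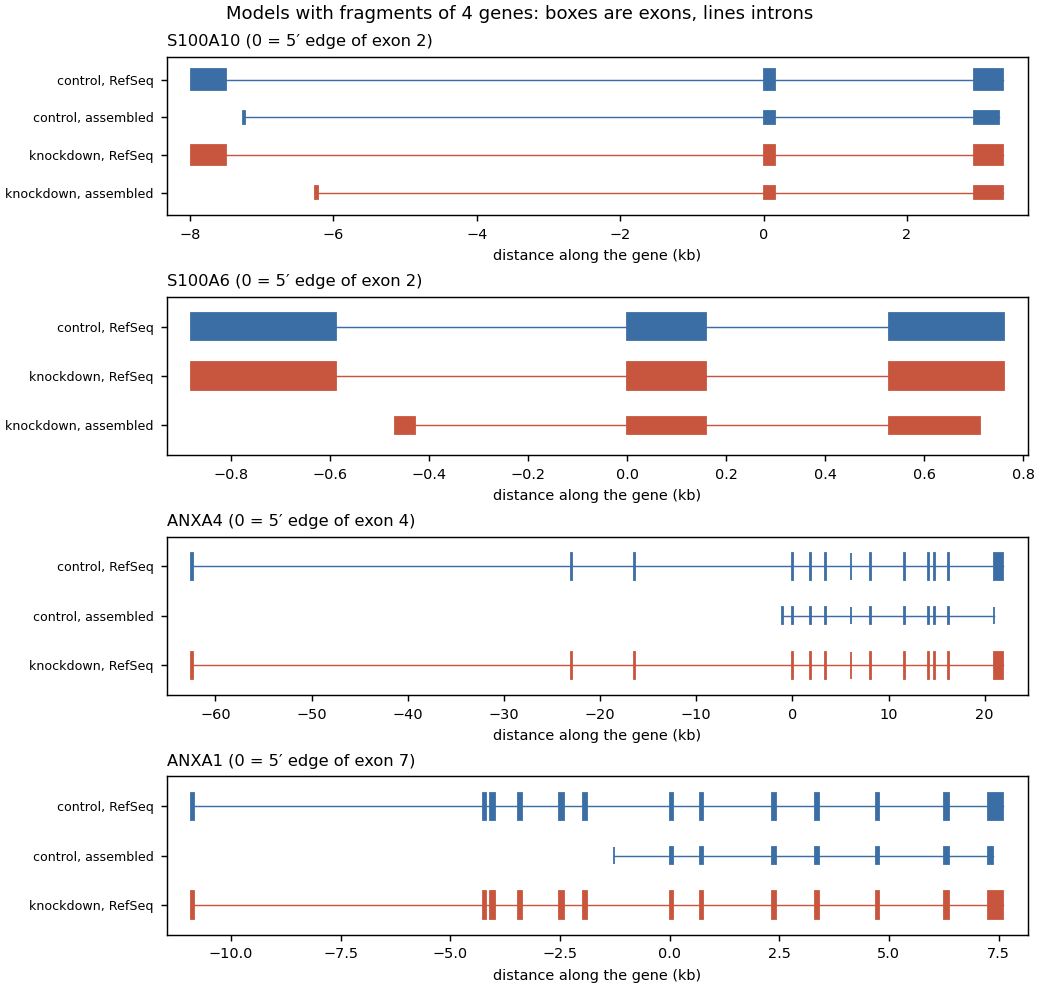
Models with fragments of S100A10, S100A6, ANXA4 and ANXA1 in control (blue) and the library labelled knockdown (red), with exons as boxes and introns as lines, against distance along the gene in kb from the 5′ edge of the RefSeq exon that the short first exons join. The assembled models (thin boxes) start downstream of the RefSeq start, at different places in the libraries for S100A10.

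Counted over introns, the models with fragments held 86 of the 93 RefSeq introns of the 10 genes in each library, and the same 86 in both. Introns outside RefSeq numbered 5 in control against 3 in the library labelled knockdown, and none was in both. Over all genes, 30.6% of such introns in control and 29.9% of those in the library labelled knockdown were in the other library. All 8 ended on a RefSeq acceptor, and 6 started from a first exon under 50 bases. The shares of such introns over all genes were not computed for either trait, and these models were chosen for sharing a RefSeq intron. Of the 12 assembled models of the members, 6 had such a first exon, where 8.92% of named assembled models did in control, and 8.09% did in the library labelled knockdown. The difference from other genes was not tested.

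These models move a gene value that sums FPKM over models, since each model counts per its own length and a short model beside a full one adds to the sum. By the sum, ANXA1 stood at 746 FPKM in control against 642 in the library labelled knockdown (log2 ratio −0.22), ANXA4 at 56.2 and 41.4 (−0.43), and ANXA11 at 101 and 76.7 (−0.39). S100A6 stood at 867 and 884 FPKM by the sum (0.029). By the sum 2 members, ANXA4 and ANXA11, were 1.2-fold or more lower and none higher, where 11.6% of 11568 genes were that much lower and 9.86% higher. None was 2-fold higher or lower by the sum, where 1.47% and 1.62% of genes were. Fragment numbers on the models, scaled by depth alone, gave log2 ratios of 0.05 for ANXA1, −0.04 for ANXA4, −0.12 for ANXA11 and −0.21 for S100A6, close to the exon values.

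Of 25 other genes on the lists of both families, 10 were measured. Of 8 other annexins, ANXA6, ANXA7 and ANXA9 were measured; ANXA8, ANXA8L1, ANXA8L2 and ANXA13 were listed at 0 in both libraries, and ANXA10 rested on 1 and 3 fragments. ANXA7, a membrane fusion annexin, stood at 92.75 and 94.97 FPKM, and ANXA6, which has a doubled core, at 32.9 and 31.4. ANXA9 stood at 1.41 and 1.25 FPKM. Their log2 ratios on exons were 0.03, −0.06 and −0.10, and none was past 1.2-fold. By the sum over models 1 was that much higher and 1 lower, against 9.86% and 11.6% of all genes. ANXA9, which rests on few fragments, turned to 0.31 (0.69 by fragment number scaled for depth alone), and ANXA6 stood at −0.36.

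Of 17 other S100 genes and S100 binders, 7 were measured, 5 above 0 and 2 below, with a median of 0.05. Over all 12086 genes, 5885 were above 0 and 6201 below. S100A16 was the most abundant, at 159 and 162 FPKM. S100A2, a p53-regulated S100 gene, stood at 15.2 FPKM in control against 12.3 in the library labelled knockdown, from 227 and 224 fragments. Its log2 ratio of −0.28 was the 1 of this list past 1.2-fold, where 3.97% of all genes were that much lower. The sign of S100A2 turned to 0.22 by the sum. S100A13, which aids release of growth factors without a signal peptide, stood at 29.3 and 33.6 FPKM (0.19), S100A3 at 4.16 and 3.81 (−0.10) and S100PBP, an S100P binder, at 20.8 and 22.2 (0.09). S100A8 and S100A9, the calprotectin genes of myeloid cells, were listed at 0 in both, and S100P rested on 1 fragment in each.

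Among 36 partners and relatives in calcium signalling and membrane repair, 29 were measured, 8 above 0 and 21 below, with a median of −0.03. Over all 12086 genes, 5885 were above 0 and 6201 below. On exons 1 was 1.2-fold or more lower and none higher, against 3.97% and 2.21% of all genes. By the sum 5 were lower and 1 higher, against 11.6% and 9.86% of all genes. The difference of this list from all genes was not tested. The gene lower on exons was CACYBP, the calcyclin binding protein named for S100A6, at 23.2 FPKM in control against 18.8 in the library labelled knockdown, a ratio of 0.811 (0.749 to 0.879) and a log2 ratio of −0.29 (−0.55 by the sum). CHMP4B, an ESCRT subunit of membrane repair, stood at 39.1 and 35.2 FPKM (−0.15), and CPNE1, a calcium-dependent lipid binder, at 87.9 and 79.4 (−0.15). CPNE1 stood at −0.42 by the sum and −0.43 by the fragment number. Of its 2631 exonic bases, 1824 are shared with no other gene. Its own models held 1810 and 1640 fragments, against 3713 and 4088 counted on its exons. CALM2, a calmodulin gene, stood at 143 and 157 FPKM (0.14). AHNAK, a large scaffold bound by the complex of S100A10 and annexin A2, stood at 47.2 and 46.8 FPKM (−0.01). The annexin A1 receptors FPR1 and FPR2 and the S100 receptor AGER were listed at 0 in both libraries.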

How the data were processed

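The authors deposited 1 transcript assembly per library, made with Cufflinks and guided by RefSeq, per the file headers. The build is hg18 and Bowtie and TopHat were among the tools used, per the submitters' processing notes, in versions not given in the sources used here. The deposited value named FPKM is not divided by depth. In loci with 1 model its interval, read as ± 2 Poisson SD, gives a whole fragment number (within 0.02) for 94.9% of 18291 loci in control and 94.5% of 19626 in the library labelled knockdown. Fragments of other models followed from the value and the length less 47 bases, or less 245.9 and 252.2 bases for unspliced assembled models. They were summed over chromosomes 1 to 22, X and Y as depth.

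Each model's fragments were spread evenly over its length, models of either strand were counted on RefSeq exons, and genes with 300 exonic bases and a mean of 1 FPKM were kept. Accessions were matched to symbols by RefSeq (GRCh38.p14), for names only. Python 3.11.15, numpy 2.4.6, pandas 2.3.3 and scipy 1.17.1 were used, and the recovery was tested on simulated data. Exact binomial and Poisson intervals are at 95%. Besides the members, the 4 largest ratios of each list were to be named; S100A5, S100A16, AHNAK and genes listed at 0 were added after their values were seen. The members and lists were chosen with earlier results of these data known.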

Additional observations from a re-analysis of the deposited data

How the results depend on the processing

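With 1 library per group nothing could be left out, and for the same reason no paired analysis was possible. Every member had at least 751 fragments per library, but depth still set the width of the intervals. The ratio of S100A11, 1.088, has an interval that holds 1. That of ANXA1, 1.034 from more fragments, has an interval that does not. A pseudocount of 0.1, upper quartile scaling and fragment numbers each left all 10 members' ratios within their counting intervals. Counting the gene's strand only or leaving out shared bases tests nothing for the members, whose values did not involve such models or bases. Among the members and the genes named by rule, the direction turned by the sum over models for ANXA1 (−0.22), S100A6 (0.029), S100A2 (0.22), ANXA9 (0.31) and USP49 (−0.88), and 2 members were 1.2-fold lower. With no depth scaling the median of all genes shifted by 0.26, the median of the members became 0.26, 5 members were 1.2-fold higher, and the direction turned for all 6 members below 0, which were ANXA2 (0.16), ANXA4 (0.25), ANXA11 (0.17), S100A4 (0.14), S100A6 (0.041) and S100A10 (0.27), and, among the genes named by rule, for ANXA6 (0.21), ANXA9 (0.068), S100A3 (0.13), CHMP4B (0.13), CPNE1 (0.14) and ANXA2P2 (0.14). Over all genes, 267 were 1.2-fold higher and 480 lower. Those counts became 1141 and 1342 by the sum, 5799 and 144 with no depth scaling, and 131 and 223 at 5 FPKM or more. With a pseudocount of 0.1 they became 403 and 706. At 2-fold, 36 and 59 became 170 and 187 by the sum and 14 and 22 at 5 FPKM or more. With models of the gene's strand they became 58 and 81. Leaving out models under 5% of a gene's fragments tests nothing for the forms, since the smallest model with fragments held 14.7%.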

Other observations

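An unspliced model with no strand lay past the RefSeq 3′ end of ANXA11 in control, at chromosome 10 from 81899872 to 81903931, with 242 fragments, and no model was listed there in the library labelled knockdown. A second unspliced model farther on held 73 and 92 fragments. On the other side, the noncoding RNA LINC00857, which runs away from ANXA11 on the opposite strand, held 93.3 and 108 fragments. None of these models shares bases with the RefSeq exons of ANXA11. The last exon is 789 bases long in that RefSeq model and 5024 bases in the GENCODE transcript on GRCh38. Whether the unspliced model lies within that longer exon was not tested.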
